A study of Schizosaccharomyces pombe with 4 samples.

Results

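Chromatin immunoprecipitation followed by sequencing was used to map RNA polymerase II phosphorylated at serine 5 (Ser5P) in fission yeast, Schizosaccharomyces pombe. The ChIP from cells lacking abp1 (abp1Δ) and the ChIP from wild-type cells each have 1 deposited list of scored intervals, and an input of each genotype was not analysed here. Both strains were in exponential growth in YES, a rich medium, and the labels name no other allele or treatment. Of the 2851 intervals in the abp1Δ list, 701 had no wild-type interval overlapping them or within 250 bp on the same chromosome, and these 701 are called far intervals. That is 24.6% of the abp1Δ list and 701 of the 6093 intervals in both lists. The mirrored rule found 563 of 3242 wild-type intervals without an abp1Δ interval in reach, or 17.4%.

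The far intervals were chosen on the positions of the same 2 lists that are described below, so their absence from the wild-type list is the choice itself and not a result. Each genotype has 1 list, so no test between genotypes was possible and no p-value is given. Every deposited score was 200 or higher, its unit is not stated, and the depth of each library is unknown. A place without an interval may therefore carry polymerase below that score, and the number of far intervals and their covered length depend on depth and scaling, whose part in these values was not tested. The deleted gene, SPBC1105.04c on chromosome II, held no interval in either list, so the lists give no check of the genotype labels.

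Polymerase II carries a long tail of repeated heptapeptides, and serine 5 of these repeats is phosphorylated as transcription starts and the polymerase moves into early elongation. Abp1 belongs to a family of fission yeast proteins related to human CENP-B, which themselves descend from a transposase. In fission yeast this family is known to bind the long terminal repeats of Tf2 retrotransposons and to help keep these elements silent. Tf2 elements are copies of 1 family with nearly the same sequence, so a short read from one of them can often be placed on several.

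Sequences are shown from the Tf2 elements and from the single-copy genes with the highest-scoring far intervals, read from the RefSeq assembly ASM294v3 in the direction of the gene. A gene counted as single-copy where under 10% of its 50-bp words occurred more than once in the genome. The Tf2-10 line is the widest far interval of that element, at chrII:1966248-1966426 on the plus strand with a score of 393, and has no capitals. The same 179 bp occurred 14 times in the genome and in all 13 annotated Tf2 elements. In cpy1, the line gives the central 300 bp, at chrI:4063560-4063859 on the minus strand, of a 432-bp far interval with a score of 1828. Capitals there mark 8 copies of the word GCCTCCTCCTCC, spaced by a median of 39 bp, and the whole stretch is coding. The SPBC1289.14 line gives the central 300 bp, at chrII:4412774-4413073 on the plus strand, of its single 738-bp interval, which held no repeated word. In med15, capitals mark 11 overlapping copies of ACAACAACAACA in a 43-bp far interval at chrII:997686-997728 on the plus strand. The pan1 line is a 77-bp far interval at chrI:4316610-4316686 on the minus strand, of which 94.8% lay in repeated words, and has no capitals.
Tf2-10: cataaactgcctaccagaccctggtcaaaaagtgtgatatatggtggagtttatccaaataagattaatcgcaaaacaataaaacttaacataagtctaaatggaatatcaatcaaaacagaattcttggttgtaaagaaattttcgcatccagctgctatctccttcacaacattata
cpy1: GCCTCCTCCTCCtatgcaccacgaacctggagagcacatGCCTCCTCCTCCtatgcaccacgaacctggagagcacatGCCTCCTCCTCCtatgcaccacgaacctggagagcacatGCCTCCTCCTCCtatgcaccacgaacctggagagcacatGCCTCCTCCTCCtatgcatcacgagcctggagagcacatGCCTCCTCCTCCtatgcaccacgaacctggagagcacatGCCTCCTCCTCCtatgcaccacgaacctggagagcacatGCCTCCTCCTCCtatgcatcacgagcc
SPBC1289.14: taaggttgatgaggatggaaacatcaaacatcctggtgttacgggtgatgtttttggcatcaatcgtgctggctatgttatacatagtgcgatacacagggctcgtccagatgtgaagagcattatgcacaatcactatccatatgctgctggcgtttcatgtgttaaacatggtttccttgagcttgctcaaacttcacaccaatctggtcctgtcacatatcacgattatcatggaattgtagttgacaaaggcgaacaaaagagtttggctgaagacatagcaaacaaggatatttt
med15: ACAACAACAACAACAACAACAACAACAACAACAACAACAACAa
pan1: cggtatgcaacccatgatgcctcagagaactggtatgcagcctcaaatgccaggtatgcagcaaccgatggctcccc

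The far intervals were short pieces, and most lay just above the lowest score. They covered 16831 bp, which is 6.73% of the 249934 bp in the abp1Δ list. The far wild-type intervals covered 12183 bp, or 5.36% of 227413 bp. The median far interval was 4 bp wide and 27.4% were a single base, against 5 bp and 26.9% for the 2150 abp1Δ intervals near a wild-type one. Wide pieces were fewer: 36 far intervals (5.14%) were at least 100 bp wide, against 280 near intervals (13.0%). The widest measured 1025 bp among far intervals and 4572 bp among near ones. The median score was 207 for far and 206 for near intervals, but only 29 far intervals (4.14%) reached 300, against 233 near intervals (10.8%). Weighted by length, the mean score per covered base was 362 in far and 825 in near intervals. Far intervals were thus as low as near ones at the median and had fewer high and wide pieces.

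Because neighbouring pieces are not independent, far intervals up to 250 bp apart were joined into 88 regions. A region spanned a median of 159.5 bp and held a median of 52 covered bp. Coverage was uneven: 10 regions with at least 500 covered bp held 8552 bp, or 50.8% of the total, and 17 regions covered under 10 bp each. The highest score of a region was under 250 in 54 regions, at least 300 in 19 and at least 500 in 5. Distance from the wild-type list ran from 251 to 61897 bp. The 33 regions more than 10000 bp away held 10911 bp (64.8%) and had a median highest score of 271. The 34 regions within 1000 bp held 2796 bp (16.6%), with a median highest score of 221.5, and the 21 between these distances held 3124 bp (18.6%), with 234. Most of the covered length was therefore far beyond the limit, and the regions nearest to it were small and low.

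**Figure D1:**
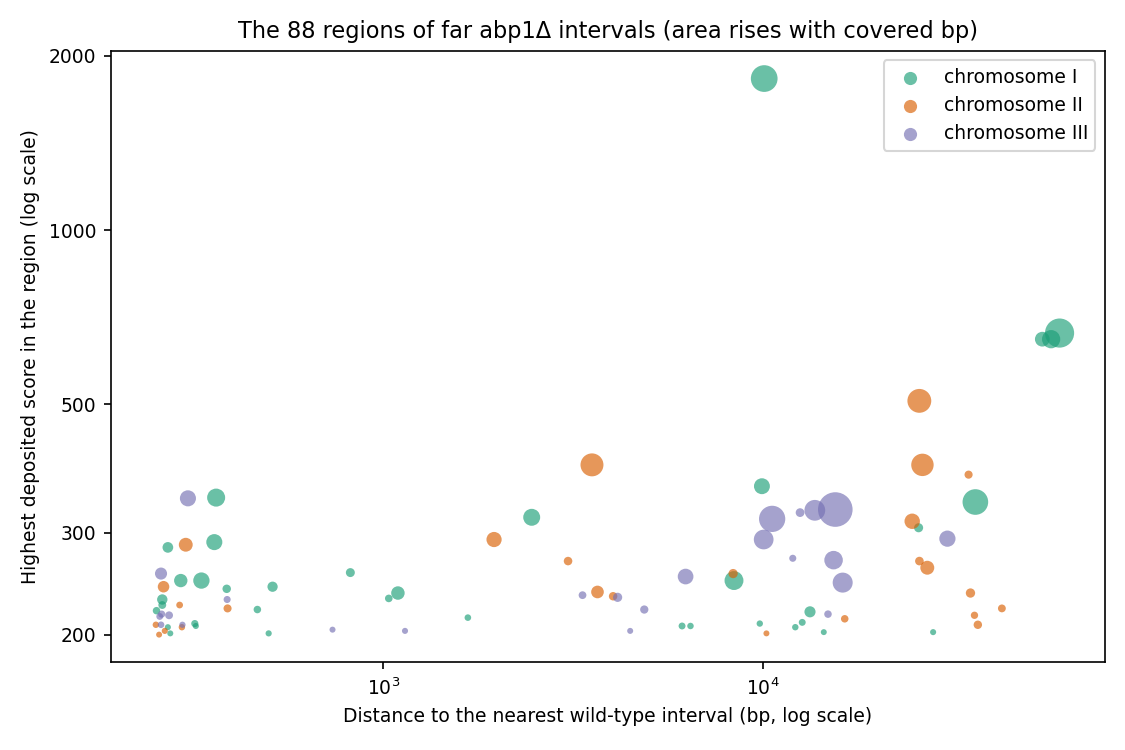
Each point is 1 of the 88 regions of far abp1Δ intervals, placed by its distance to the nearest wild-type interval (bp, log scale) and its highest deposited score (log scale), with area rising with covered bp and colour by chromosome. The highest point, at 1828, lies in cpy1, and the 3 points farthest to the right, with scores of 648 and 664, lie in and between the But2 family genes SPAC27D7.09c and SPAC27D7.11c.

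At the limit itself the intervals looked alike on both sides. Just outside it were a 9-bp interval in ght2, a gene for a glucose and fructose symporter, 251 bp from the wild-type list with a score of 208, and a 5-bp interval in nog2, a gene for a GTPase of ribosome export, 252 bp away with a score of 213. Just inside it were an 11-bp interval at chrI:1316869-1316879, 249 bp away with a score of 210, and a single base on chromosome III at position 553955, 250 bp away with a score of 202. Both genes also held nearby pieces in each list, with 334 bp in abp1Δ and 310 bp in wild type for ght2 and 107 bp in abp1Δ and 15 bp in wild type for nog2.

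Tf2 elements held 1985 bp of the far intervals, or 11.8%, although the 13 annotated elements make up 0.415% of the genome. An element here means its annotated gene. In Tf2-10 and Tf2-11 that gene is coding sequence throughout, so the long terminal repeats lie outside it and outside these shares. Adding 250 bp on each side of the elements left the share at 11.8%. No near abp1Δ interval and no far wild-type interval fell in a Tf2 element. All of this lay in Tf2-10 and Tf2-11 on chromosome II, and the other 11 elements held no interval in either list. Tf2-10, at chrII:1965390-1969390, carried 65 pieces and 1004 bp in abp1Δ and none in wild type, which is 25.1% of the annotated gene. Tf2-11, at chrII:4414657-4418658, carried 68 pieces and 981 bp in abp1Δ and none in wild type, or 24.5%. In both elements the highest score was 393.

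The pieces lay at nearly the same places in these elements. As annotated, both are coding sequence from their first base to their last. Counted from that annotated start, they ran from 692 to 3415 bp in Tf2-10 and from 692 to 3416 bp in Tf2-11. They fell into 3 blocks in each. The first block, from 692 to 1824 bp in both, held 680 bp in Tf2-10 and 646 bp in Tf2-11 and contains the sequence printed above. A short middle block held 53 bp in Tf2-10 and 55 bp in Tf2-11, and the last block held 271 bp in Tf2-10 and 280 bp in Tf2-11. Of the pieces, 31 had the same first and last position in both elements, and 25 of these had the same score. Past the first block, many Tf2-11 pieces lay 1 bp further along than a Tf2-10 piece with the same score. An example is 2821 to 2879 bp in Tf2-10 and 2822 to 2880 bp in Tf2-11, both at 262. Such pieces are not among the 31. Counted without shifting either element, both were covered at 939 positions, with 65 covered in Tf2-10 alone and 42 in Tf2-11 alone.

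Most of the sequence under these pieces does not tell the copies of the family apart. Repeated 50-bp words covered 100% of the far bp in Tf2-10 and 99.4% in Tf2-11, and the words of these intervals had a median of 13 copies in the genome. Of the words in the Tf2-10 intervals, 97.4% were also found in each of Tf2-1 to Tf2-6, Tf2-9 and Tf2-12, elements that held no interval, 94.8% in Tf2-13, 85.6% in Tf2-7 and Tf2-8, and 78.0% in Tf2-11. Of the words in the Tf2-11 intervals, 79.7% were found in each of the first 8 elements named, 77.2% in Tf2-13, 91.1% in Tf2-7 and Tf2-8, and 75.9% in Tf2-10. How reads with several matches were placed is not given in the sources used here. Words found once in the genome made up 4.10% of Tf2-10, 9.06% of Tf2-11, 1.45% of Tf2-2 and 1.24% of Tf2-13, and 0% of the other 9 elements. The 2 elements with intervals were thus the 2 with the most unique sequence, and the part of read placement in this pattern was not tested.

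**Figure D2:**
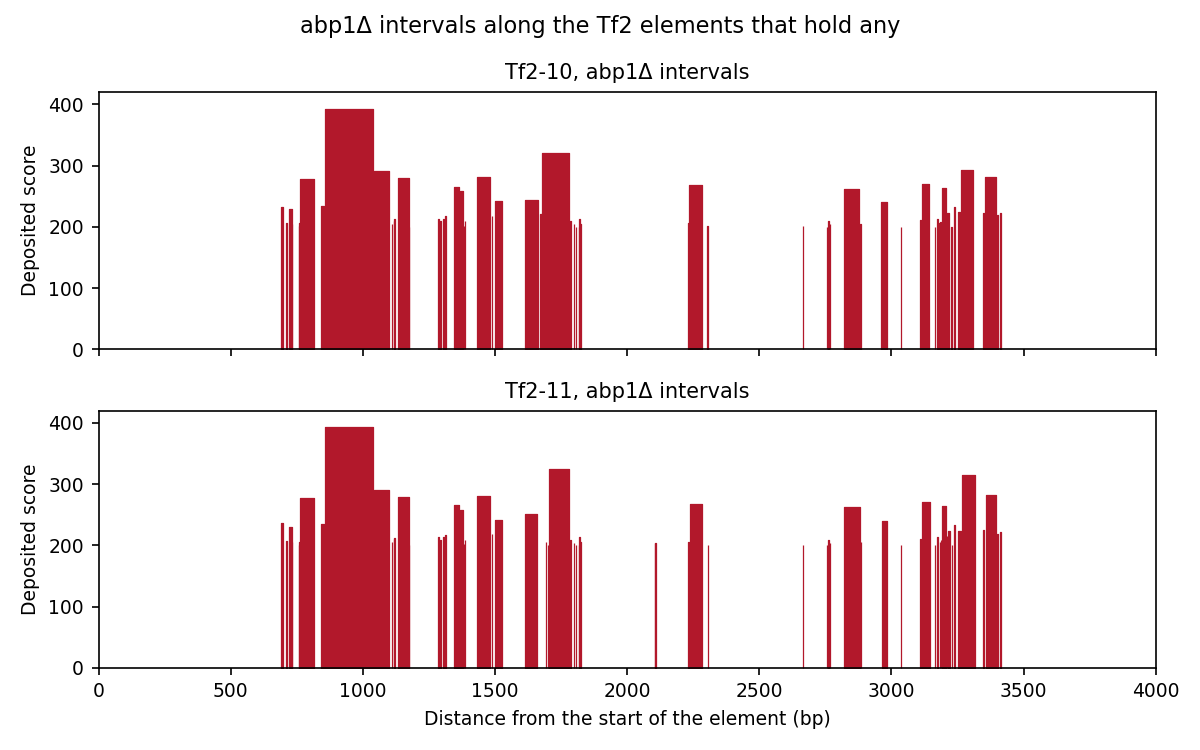
Bars show the deposited score (vertical axis) and extent of each abp1Δ interval along Tf2-10 (top) and Tf2-11 (bottom). Distance is counted in bp from the start of the annotated gene, labelled as the start of the element. The pieces match closely in place and height, the highest bar reaches 393 in both, and the wild-type list has no interval in either element.

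The gene that precedes Tf2-11, SPBC1289.14, ends 1057 bp before the annotated start of that element and held the widest unbroken far piece of chromosome II. Its annotated product is an adducin, named after a family of membrane skeleton proteins of animals. A single interval of 738 bp with a score of 507 covered 54.3% of the gene in abp1Δ, the wild-type list had none, and the nearest wild-type interval was 25922 bp away. Unlike the element, the gene holds no repeated word, so its interval is placed by its own sequence. The gene after Tf2-10, knh4, chosen here because it borders the element, held 1950 bp in abp1Δ and 1804 bp in wild type and no far interval. The other 10 genes among the 3 nearest on each side of the 2 elements held no interval in either list.

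In all, 68 of 5113 protein-coding genes held a far abp1Δ interval, or 1.33%, and 63 held a far wild-type interval, or 1.23%. Any interval at all was present in 364 genes in abp1Δ and 367 in wild type. Most protein-coding genes thus held no interval, and the 1.33% set beside the gene lists below is over all of them. Among the 364 genes with any abp1Δ interval, 68 held a far one. The median far coverage of the 68 genes was 63.5 bp, 13 genes held under 10 bp and 38 held at least 50 bp. The far rule asks only for 250 bp of distance, and 30 of the 68 genes did hold a wild-type interval elsewhere in the gene. The other 38 genes had none, and they held 13069 of the 16831 far bp. Among the 11 genes with at least 500 far bp, 9 had no wild-type interval, and the other 2 had 3 and 4 bp.

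**Figure D3:**
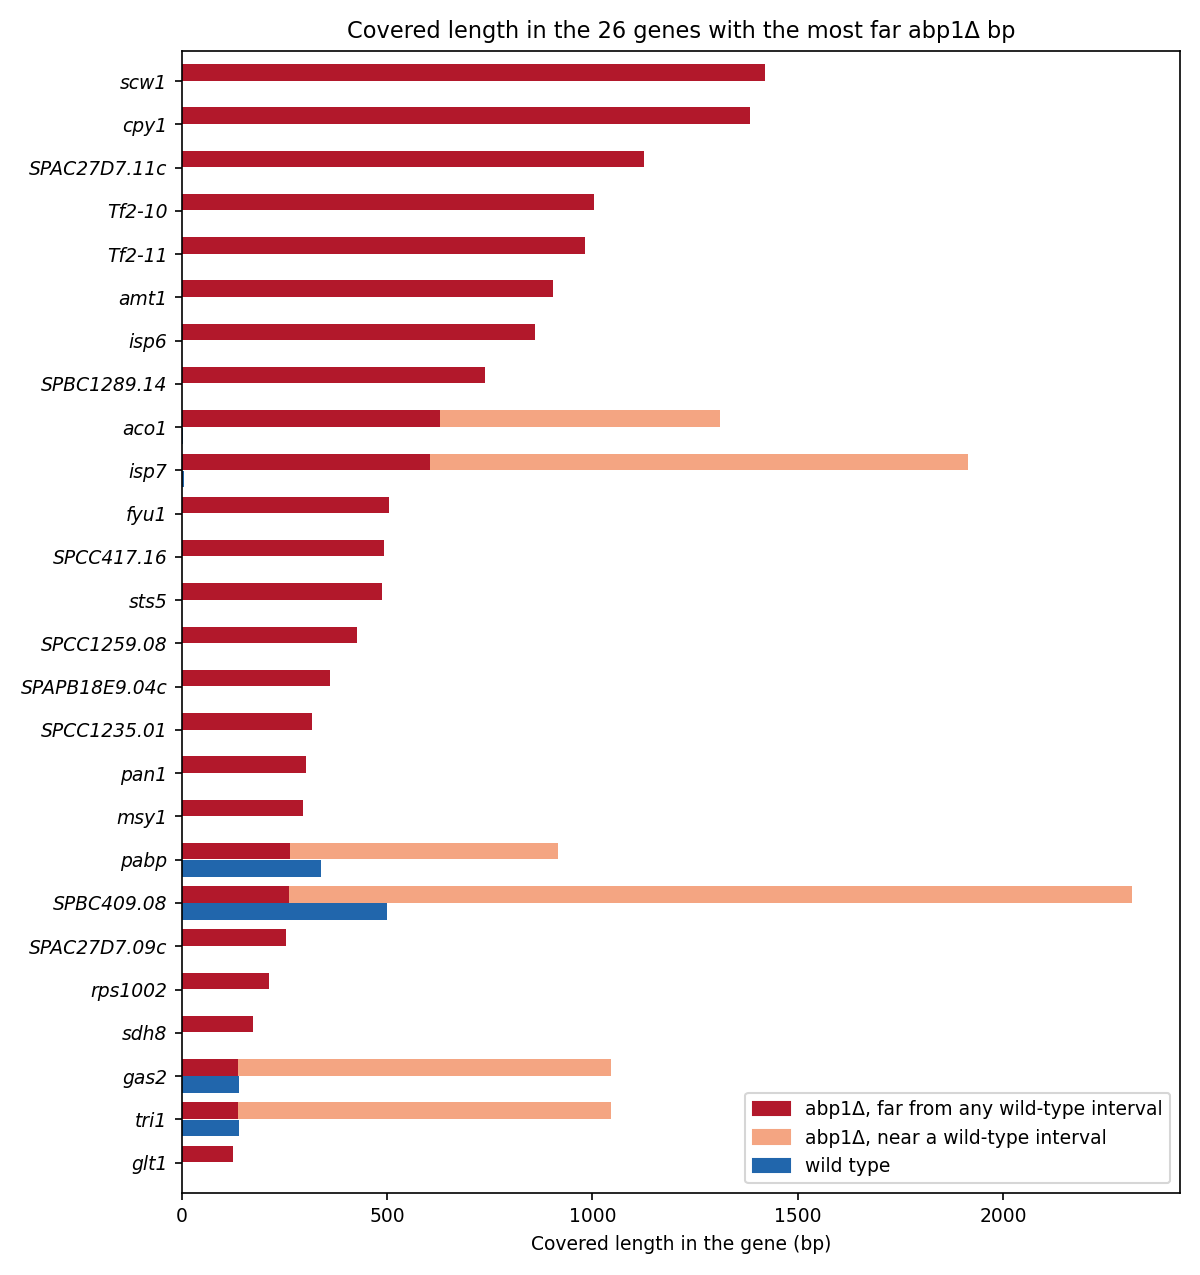
Bars show the covered length in bp within the 26 genes with the most far bp, split for abp1Δ into far bp (dark red) and bp near a wild-type interval (light red), with the wild-type covered bp in blue below. Most of these genes have no blue bar; pabp, SPBC409.08, gas2 and tri1 have wild-type coverage between 138 and 499 bp.

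Genes for nitrogen uptake and vacuolar proteolysis held long far stretches. Of the 20 genes in this list, 5 held an interval in abp1Δ and 2 in wild type. Far intervals fell in 3 of them, 15% beside 1.33% of all protein-coding genes, each with no wild-type interval in the gene. Their median far coverage was 905 bp, against 63.5 bp over all 68 genes with far intervals. The list was drawn up with these results known, so its count describes the lists and does not single it out. The other members with intervals were gln1, for glutamine synthetase, with 849 bp in abp1Δ and 91 bp in wild type, and ptr2, a peptide transporter gene, with 2188 bp in abp1Δ and 2045 bp in wild type.

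cpy1 encodes carboxypeptidase Y, a protease of the vacuole, and held the highest far score. Its 60 pieces covered 1384 bp in abp1Δ, or 38.6% of the gene, and the wild-type list had none, with its nearest interval 8409 bp away. They ran from 615 to 3363 bp after the gene start at chrI:4061377-4064957. The score of 1828 belongs to the repeat shown above, and cpy1 fell into 2 regions, of which the other covered 445 bp with a highest score of 248. Repeated words covered 470 of its far bp, or 34.0%, and all of them recur within cpy1 and nowhere else in the genome. That score may count the reads of several repeats, while the far bp outside the repeats are placed by their own sequence.

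isp6 and amt1 held long, little-broken stretches without repeated words. isp6, which encodes a vacuolar serine protease related to subtilisin, held 860 bp in 19 pieces in abp1Δ and none in wild type, with a highest score of 339. This is 40.2% of the gene, from 544 to 1605 bp after its start, and the nearest wild-type interval was 36430 bp away. amt1, which encodes an ammonium transporter of the plasma membrane, held 905 bp in 10 pieces in abp1Δ and none in wild type, with a highest score of 317. This is 33.2% of the gene, and its widest piece was 558 bp. In both genes the pieces began inside the coding sequence, which starts 509 bp into isp6 and 828 bp into amt1.

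isp7 was covered over most of its length in abp1Δ. The gene encodes an oxygenase of the 2-oxoglutarate and iron family, which in fission yeast takes part in the control of amino acid uptake. It held 1915 bp in abp1Δ and 4 bp in wild type, and 604 bp of the abp1Δ total lay more than 250 bp from any wild-type base. A 350-bp far interval with a score of 345 lay entirely before the coding sequence, which begins 1286 bp into the annotated gene. The highest abp1Δ score in the gene, 479, fell outside the far intervals.

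**Figure D4:**
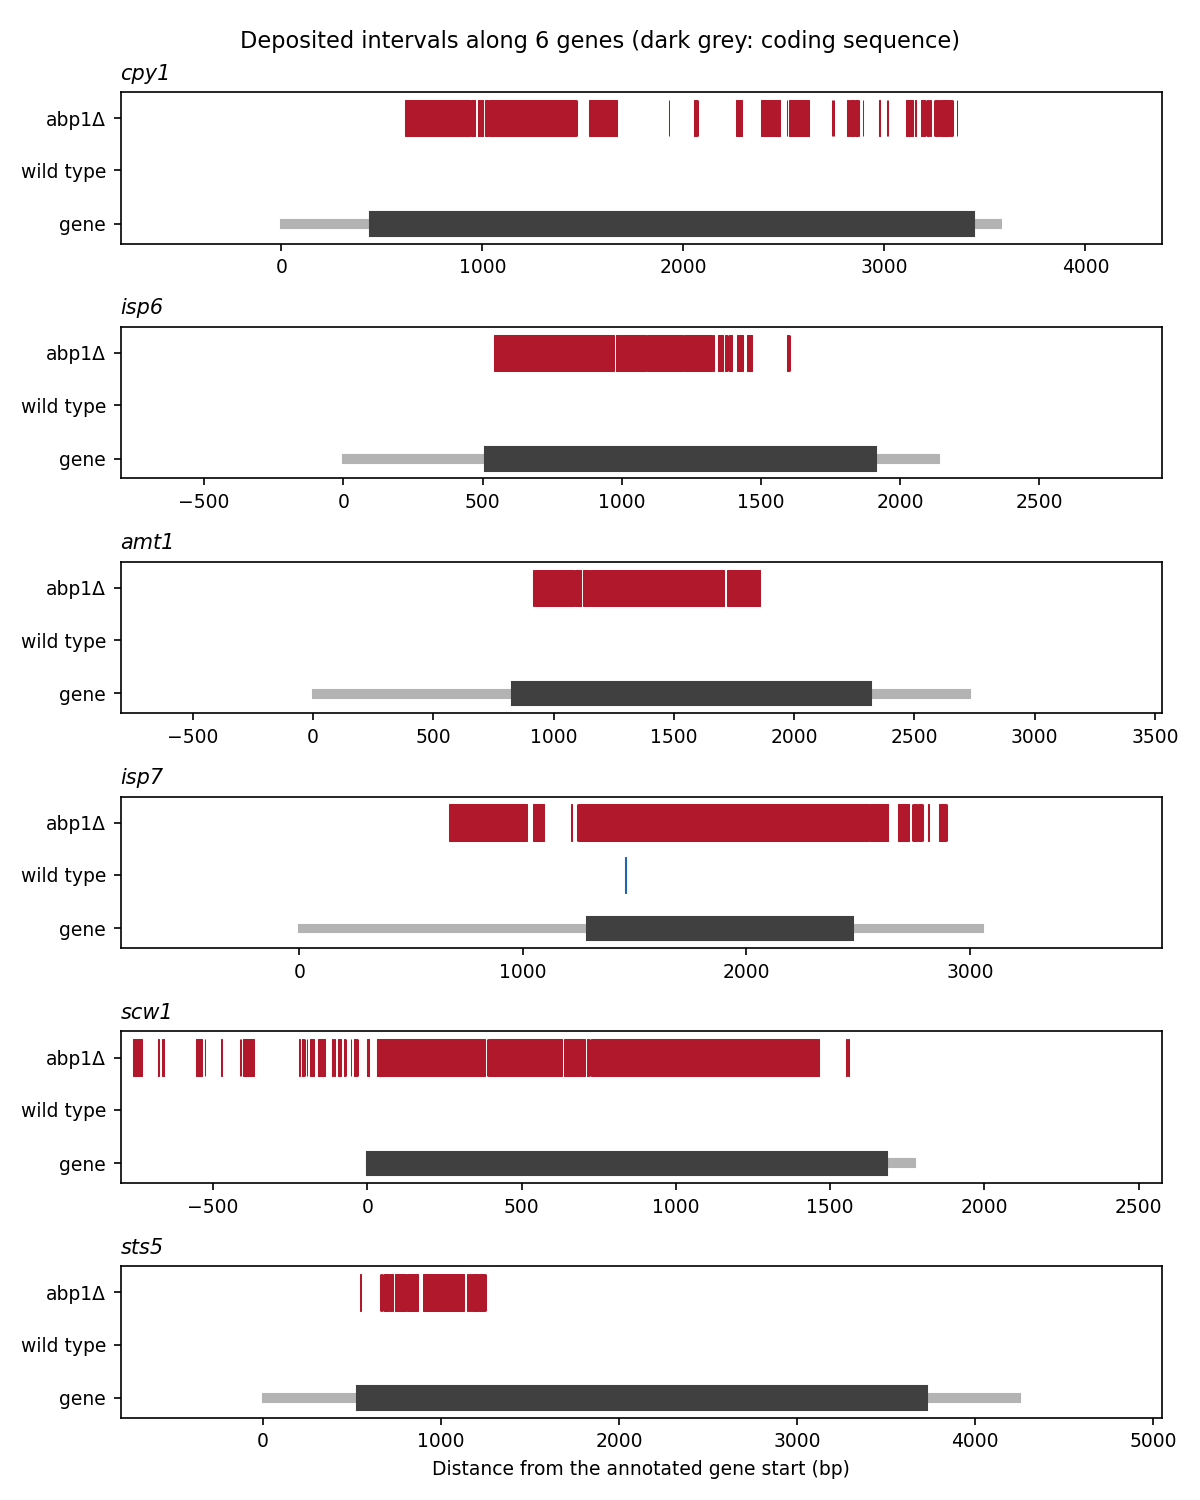
Deposited intervals along 6 genes, by distance from the annotated gene start in bp, with abp1Δ intervals in red above wild-type intervals in blue and the gene below in grey (dark grey: coding sequence). The red blocks cover from 11.5% of sts5 to 80.0% of scw1, and in cpy1 they are broken into 60 pieces. The only blue is the 4 bp in isp7, and in scw1 the red pieces begin before the annotated start.

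Genes for RNA-binding regulators held far stretches of very different length. Of 19 genes, 6 held an interval in abp1Δ and 4 in wild type. Far intervals fell in 4 of them, 21.1% beside 1.33% of all protein-coding genes, and 3 of these had no wild-type interval in the gene. Those 3, bpb1, scw1 and sts5, all lie between chrIII:556241 and chrIII:684083, so they share a location. The 100-kb windows that hold them carried 6208 and 5825 bp in abp1Δ and 4278 and 1511 bp in wild type. The part of location in this share was not tested. The median far coverage of the 4 genes was 375 bp, against 63.5 bp over all 68 genes, and this list too was drawn up with these results known. scw1, for an RNA-binding protein that acts on cell wall and septum formation, had the most far bp of any gene. It held 1420 bp in abp1Δ, or 80.0% of the gene, and none in wild type, with a highest score of 329. The joined region was also the longest, with 40 pieces and 1606 bp over 2321 bp at chrIII:672717-675037, and began before the annotated start of scw1 at position 673476. That start is also the first coding base, since the annotation gives scw1 no 5′ untranslated region.

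sts5 lies near scw1 on chromosome III, at chrIII:679835-684083, and encodes a protein like the exoribonuclease Dis3L2 that is known for its part in cell polarity. It held 488 bp in abp1Δ and none in wild type, between 548 and 1251 bp from its start, with a highest score of 292. pabp, for the major poly(A)-binding protein, held 916 bp in abp1Δ and 339 bp in wild type, of which 262 bp were far. bpb1, for a splicing factor that recognises the branch point, held 35 bp in abp1Δ and none in wild type. edc1, a gene of the mRNA decapping pathway outside this list, held 547 bp in abp1Δ and 6 bp in wild type, of which 110 bp were far.

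Several genes of central metabolism and mitochondria held far intervals, of which aco1 and pgi1 belong to the lists used here and the others to none. aco1 encodes aconitase of the tricarboxylic acid cycle and was the 1 gene with a far interval in a list of 22 respiration genes, 4.55% beside 1.33% of all protein-coding genes. It held 1311 bp in abp1Δ and 3 bp in wild type, and 628 bp of the abp1Δ total were far. fyu1, for the enzyme that makes UDP-glucose, held 505 bp in abp1Δ and none in wild type, with a highest score of 246. SPCC417.16, annotated as a subunit of the NADH:ubiquinone reductase complex, held 493 bp in abp1Δ and none in wild type, or 68.2% of a short gene. Its coding sequence spans only 183 to 341 bp of the 723-bp gene. The same far region also covers 92 bp of the overlapping gene SPCC417.15 and touches the non-coding RNA prl32. glt1, for glutamate synthase, held 124 bp in abp1Δ and none in wild type, at scores up to 219. pgi1, for glucose-6-phosphate isomerase, held 98 bp in abp1Δ and none in wild type. It was the 1 gene with a far interval in a list of 18 for glycolysis and fermentation, 5.56% beside the same 1.33%. Far wild-type intervals fell in 2 of these 18 genes and in none of the 22 respiration genes. sdh8, named after an assembly factor of succinate dehydrogenase in budding yeast, held 173 bp in abp1Δ and none in wild type, at scores up to 237. The respiration list does not hold SPCC417.16, sdh8 or nde1. The last, an NADH dehydrogenase gene named after its values were seen, held 512 bp in abp1Δ and 144 bp in wild type, of which 37 bp were far.

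The pair of But2 family genes on chromosome I had the next highest far scores after cpy1. SPAC27D7.11c held 1125 bp in abp1Δ, or 67.0% of the gene, and none in wild type, with a highest score of 664 and a piece of 1025 bp that was the widest of all far intervals. SPAC27D7.09c held 253 bp in abp1Δ and none in wild type, with a highest score of 648. A region of 413 bp with the same score of 648 lay between them, at chrI:4526415-4526829, over the non-coding RNAs SPNCRNA.4043 and SPNCRNA.4044. The nearest wild-type intervals to these 3 places were 54710 to 61897 bp away. All 413 bp between the genes were repeated sequence, as were 63.2% of the far bp in SPAC27D7.09c and 33.5% in SPAC27D7.11c, and these words recur outside each gene. Scores there may be shared between copies, whereas most of the far bp in SPAC27D7.11c were unique.

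Further genes for membrane and cell surface proteins held between 115 and 302 far bp. msy1, for a mechanosensitive ion channel, held 294 bp in abp1Δ and none in wild type, at scores up to 252. SPBC409.08, annotated as a spermine family transporter, held 2315 bp in abp1Δ and 499 bp in wild type, of which 260 bp were far. pan1, for a component of the actin patches where endocytosis takes place, held 302 bp in abp1Δ and none in wild type, at scores up to 361. gas2, for an enzyme that remodels cell wall glucan, shares its far interval with the overlapping gene tri1, for a ribonuclease of the CAF1 family. Each of them held 1044 bp in abp1Δ and 138 bp in wild type, with the same 136 far bp, and ChIP has no strand to tell them apart. bgs4, for the catalytic subunit of a glucan synthase, held 130 bp in abp1Δ and 31 bp in wild type, of which 115 bp were far. gas2 and bgs4 were the 2 with far intervals in a list of 31 cell wall genes, 6.45% beside 1.33% of all protein-coding genes. Far wild-type intervals fell in 6 of these 31 genes, where 1.23% of all protein-coding genes held one. The list is not complete. aah1, for a GPI-anchored glycosyl hydrolase, and bgl2, for a glucan beta-glucosidase, are outside it and are named after their values were seen. They held only 30 and 18 far bp in abp1Δ, and neither held a wild-type interval.

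pil1 and fhn1 encode eisosome proteins, which shape furrows of the plasma membrane, and were the 2 of 18 membrane and transport genes with far intervals, 11.1% beside 1.33% of all protein-coding genes. pil1 held 2207 bp in abp1Δ and 1179 bp in wild type, and 33 far bp at its 3′ end. These 33 bp are the start of a far interval of 309 bp with a score of 344, at chrIII:351133-351441, the rest of which lies past the annotated end of pil1. fhn1 held 2386 bp in abp1Δ and 1910 bp in wild type, with 9 far bp. rds1 overlaps SPAC343.20, and both held 969 bp in abp1Δ and 97 bp in wild type with the same 97 far bp. Of the uncharacterised genes, SPCC1259.08 held 426 bp, SPAPB18E9.04c 361 bp and SPCC1235.01 316 bp in abp1Δ, and none of them held a wild-type interval.

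Ribosomal protein genes, which are among the most strongly transcribed genes of growing cells, were mostly covered in both lists. Of 137 genes, 109 held an interval in abp1Δ and 113 in wild type, and 4 held far intervals, a share of 2.92% beside 1.33% of all protein-coding genes. Counted only over genes with any abp1Δ interval, this is 4 of 109, beside 68 of 364 for all genes. Far wild-type intervals fell in 6 of the 137 genes. rps1002 held 211 bp in abp1Δ and none in wild type, at scores up to 261, and rps1901 held 70 bp in abp1Δ and none in wild type. rpl3601 held 350 bp in abp1Δ and 35 bp in wild type, with 37 far bp, and rps1201 held 432 bp in abp1Δ and 62 bp in wild type, with 23 far bp. The last pair therefore had intervals at the same genes in both lists, with far pieces beyond the shorter wild-type stretch.

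The remaining lists held 23 far bp or fewer in any gene. Chaperone genes had 2 of 16 with far intervals, 12.5% beside 1.33% of all protein-coding genes, with 23 bp in pss1 and 3 bp in ssc1. Both held wild-type intervals too, and 10 of the 16 chaperone genes held some abp1Δ interval. The hexose transporter list had 1 of 8, the 9 bp in ght2, also 12.5%. Of 18 core stress response genes only tpx1, for a peroxiredoxin, had far bp, with 6 bp (5.56%), and of 35 DNA-binding regulators only fil1, for a GATA-type factor, with 2 bp (2.86%). erg5, for an enzyme of ergosterol synthesis, was the only 1 of 24 in the lipid list, with 3 bp (4.17%). Far wild-type intervals fell in 1 chaperone gene, 1 hexose transporter gene, 3 DNA-binding regulators and 1 gene of the lipid list. They fell in no core stress response gene. No far interval fell in the lists for amino acid synthesis (33 genes), histones (10), translation factors (13), sulfur assimilation (13), nucleotide synthesis (21), the cytoskeleton (16), mating and meiosis (23), ubiquitin (5) or the CENP-B family (3). The list of translation factors is not complete. The initiation factor genes tif471, for eIF4G, and tif5 are outside it and are named after their values were seen. tif471 held 66 far bp in abp1Δ with a highest score of 306, tif5 held 27 far bp, and neither held a wild-type interval.

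Repeats within a gene marked a further group. In cpy1, SPAPB18E9.04c, pan1, SPCC1235.01 and med15, every repeated 50-bp word recurred in the same gene and nowhere else. Such words covered 99.7% of the far bp in SPAPB18E9.04c, 83.4% in pan1, 22.2% in SPCC1235.01 and 100% in med15, which encodes a subunit of the Mediator complex. The far interval of med15 was the 43-bp run printed above, with a score of 378. It was 34958 bp from the wild-type list, and its sequence matched the genome at 14 positions when overlapping matches within the run were counted. Genes in which more than 10% of the 20-bp words recur internally were 4 of the 68 genes with far intervals (5.88%), 7 of 364 with any abp1Δ interval (1.92%) and 21 of 5113 in the genome (0.411%). Counted over all far bp, 24.5% lay in repeated 50-bp words, against 9.42% of near abp1Δ bp, 28.9% of far wild-type bp and 4.55% of the genome.

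Far intervals lay mostly in coding sequence, and few lay close to gene starts. Along protein-coding genes, with 0 at the annotated start and 1 at the end, the median covered base lay at 0.456 for far and 0.566 for near abp1Δ intervals. In the wild-type list the medians were 0.473 for far and 0.553 for near intervals. Relative to gene length, far bases thus lay earlier than near ones in both lists. Counted in bp from the gene start, the abp1Δ medians were 1106.5 for far and 953.5 for near intervals, the other way round. The wild-type medians in bp were 792.5 and 847.5. When genes were cut into 3 equal parts, 27.5% of far abp1Δ bp fell in the first, 47.3% in the middle and 25.3% in the last, against 19.97%, 44.0% and 36.01% for near intervals. Only 2.997% of far bp lay within 250 bp of a gene start, against 5.92% of near bp. In the wild-type list these shares were 7.23% of far and 6.79% of near bp, the other way round. Bases in 2 overlapping genes count once for each gene, and genes with many far bp weigh most.

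**Figure D5:**
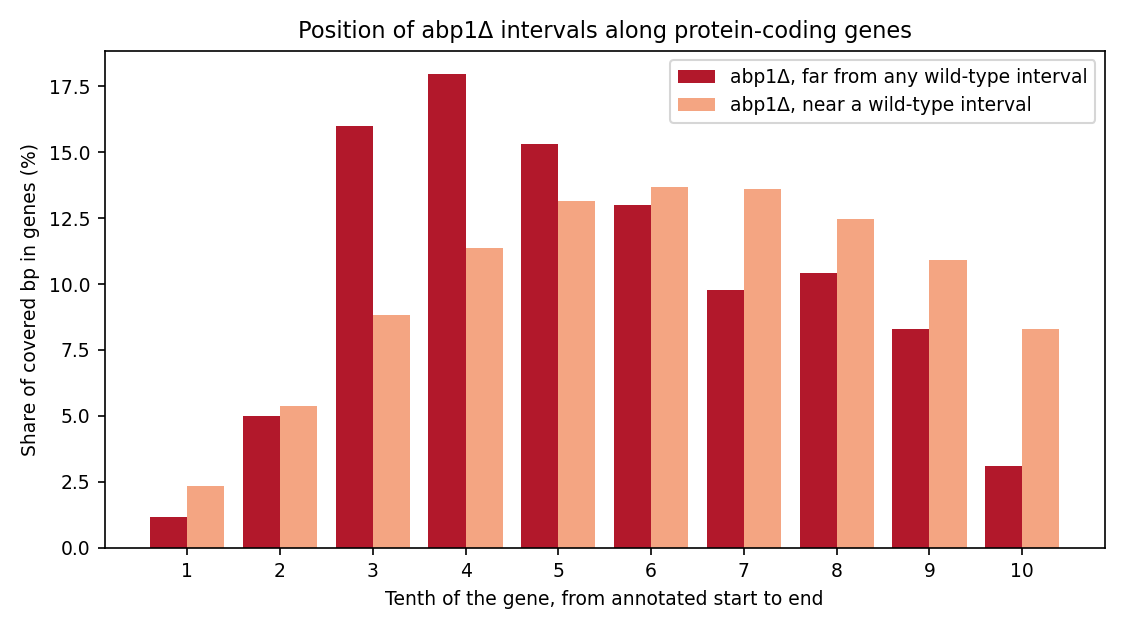
Share of covered bp in protein-coding genes (percent, vertical axis) in 10 equal bins from annotated start to end, for far abp1Δ intervals (dark red) and abp1Δ intervals near a wild-type one (light red). Far intervals peak in bins 3 to 5, at 16.0%, 17.9% and 15.3%, and near intervals in bins 5 to 7, at 13.2%, 13.7% and 13.6%.

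By annotation, 92.5% of far bp lay in protein-coding genes, against 90.3% of near bp and 76.7% of the genome. Coding sequence held 83.6% of far and 72.1% of near bp. The 3′ untranslated regions held 4.96% of far and 13.3% of near bp, the 5′ untranslated regions 3.75% and 3.45%, and introns 0.172% and 1.45%. The GC content was 42.9% in far intervals, 43.0% in near intervals and 36.1% in the genome. Far and near intervals of the abp1Δ list thus differed in their coding and 3′ untranslated shares and had nearly the same base composition. The shares differed in the same direction in the wild-type list. There, coding sequence held 76.2% of far and 71.5% of near bp, and 3′ untranslated regions 8.52% and 12.9%. The coding share of far abp1Δ bp includes the 1985 bp in Tf2 elements.

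Chromosome III held more of the far length than its size. It carried 5930 far bp in 25 regions, or 35.2% of the total, against 19.8% of near bp and 19.5% of the genome. Chromosome I carried 6971 bp in 37 regions (41.4%, against 49.3% of near bp), and chromosome II carried 3930 bp in 26 regions (23.3%, against 30.9%). Of the abp1Δ bp on each chromosome, far bp made up 5.72% on I, 5.18% on II and 11.4% on III. The far wild-type bp made up 4.26%, 7.72% and 4.19% of the wild-type bp there. The 100-kb window with the most far bp was at chrIII:600001-700000, which holds scw1, sts5 and msy1, with 2542 far bp among 5825 bp in abp1Δ and 1511 bp in wild type. The windows before it, from chrIII:300001 to 600000, held 2483, 933 and 6208 bp in abp1Δ against 1179, 522 and 4278 bp in wild type. The window after it held 85 bp in abp1Δ and 1492 bp in wild type. Why abp1Δ coverage was higher over this stretch of chromosome III was not tested. The window with the next most far bp was at chrI:4500001-4600000, with the But2 family genes. There all 1791 bp in abp1Δ were far and the wild-type list had none. Without the Tf2 elements, a choice made after the values were seen, chromosome II held 13.1% and chromosome III 39.9% of the far bp.

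Outside protein-coding genes lay 1270 far bp. Of these, 799 bp were in 8 far regions that touched no protein-coding gene, and the rest were parts of other regions, such as those before scw1 and past pil1. The longest after that between the But2 family genes lay at chrIII:690740-690896 over the non-coding RNA SPNCRNA.471, with 154 bp and a score of 255. A region at chrI:1316671-1316867 over snR88, a small nucleolar RNA gene, held 101 bp with a score of 230. A pair of regions over SPNCRNA.6763 on chromosome III held 58 and 21 bp, with scores of 325 and 271. The other 3 regions covered 15 to 21 bp each.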

How the data were processed

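Ser5P ChIP-seq was done on abp1Δ and wild-type cells, with 1 ChIP and 1 input sample each. Source names gave the groups; for the mutant ChIP they read APB1d and the genotype label ABP1d. Per the labels' protocols, cells were fixed in 1% formaldehyde for 15 min, quenched with 125 mM glycine and sheared to 250 to 400 bp. The submitters' processing notes name Bowtie 0.12.5. Not given in the sources used here are the peak caller, the build, the scaling, how inputs were used and where reads with several matches went. Both deposited lists hold chromosome, start, end and the authors' score, a whole number of at least 200 with no stated unit. Scores were compared within 1 list only. Depth is unknown, so no interval or floor for counting error was computed.

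Positions were checked against RefSeq's ASM294v3 assembly and genes: every interval fitted on its chromosome, and 90.4% of abp1Δ and 89.6% of wild-type bp lay in protein-coding genes. They are given 1-based. Distances count the bases between intervals, and exactly 250 bp counted as near. Overlaps, words of 50 bp (both strands) and positions were computed with Python 3.11.15 and numpy 2.4.6, and tested on simulated intervals. Annotated Tf2 elements counted as protein-coding genes.

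The members, the 22 gene lists and the alternatives were chosen with earlier results of these data known. Named genes are the Tf2 elements and the deleted gene, the 30 genes with the most far bp, the 10 with the highest far score, up to 6 further members of each list, and the 2 intervals on each side of the limit. A sequence in the 5′ untranslated part of isp7 is not printed.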

Additional observations from a re-analysis of the deposited data

How the results depend on the processing

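With 13 values recomputed under other settings, 112 of 138 alternative values stayed within 1.5 times (counts and lengths) or within 95% bounds of the reported value (shares and medians), and 26 moved. The bounds come from members of 1 list and not from replicates, so they grade the size of a change and measure no spread between samples. For the median score they treat the 701 intervals as units and run from 206 to 207. They are too narrow there, since neighbouring pieces are not independent. Bounds on shares within the far bp apply each bp share to the 88 regions as if these were equal units. Since 10 regions held 50.8% of the far bp, these bounds are only a rough guide. For the Tf2 share of 11.8% they run from 6.29% to 19.7%. That share was 7.66% with overlap as the only limit, a change of more than 1.5 times, and 8.04% at scores of at least 300. No paired analysis was possible because each genotype has 1 list and no replicate, and for the same reason no sample could be left out. Counting every abp1Δ interval without an overlapping wild-type one gave 1631 intervals, 25908 bp, 10.4% of the abp1Δ bp, a median score of 205 and 231 genes. A limit of 100 bp gave 108 genes and a limit of 1000 bp gave 43. Keeping abp1Δ scores of at least 250 left 80 far intervals, a median score of 284.5 and 27 genes. Keeping scores of at least 300 left 29 intervals, 7292 bp, 3.53% of the abp1Δ bp, a median score of 345 and 16 genes. Cutting the abp1Δ list by score to the wild-type covered length, which left 453 intervals at 244 or higher, gave 88 far intervals, a median score of 281.5 and 28 genes. Leaving out 1-bp intervals moved the median score to 211, and leaving out those under 10 bp gave 214 intervals and a median score of 236. The share in genes was 98.0% over all annotated genes, and 38 genes held at least 50 far bp. Alternatives chosen after seeing the data left out Tf2 elements, with 13.1% of far bp on chromosome II, or repeated sequence, with 14.8% there and 0.0622% in Tf2 elements. Counting exactly 250 bp as far, also chosen after seeing the data, gave 702 intervals. Fewer intervals and genes under stricter limits follow from how those settings are built.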
